A study of Homo sapiens with 9 samples.

Results

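Insulin receptor substrates are the scaffold proteins that insulin and IGF receptors phosphorylate. The genes described here are the substrates IRS1, IRS2 and IRS4, the receptors INSR and IGF1R that phosphorylate them, and IGF2R, a receptor without kinase activity that clears IGF2. These 6 genes were taken by name from a table of 26485 genes, and the transcribed region that the depositors' tables place downstream of IRS4 was added. IRS4 was chosen by its measured read counts, which differed between KO and WT cells, so its levels are given as a description with no test. The other 5 genes were taken in as its family and its receptors.

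Poly(A)-selected RNA of HEK293, a cell line from human embryonic kidney, was sequenced in 9 libraries. There were 3 libraries of UBE3D addback cells, 3 of UBE3D KO cells and 3 of UBE3D WT cells. UBE3D, an E3 ubiquitin ligase, was knocked out with CRISPR/Cas9, and the series asks how its loss changes expression and transcription past gene ends. All cells were grown in DMEM with fetal bovine serum. The labels name neither the number of KO clones nor the vector or promoter of the addback, and they mark every sample as pooled. The p-values therefore measure the spread between libraries whose independence is not stated.

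After a ligand binds, the receptor phosphorylates tyrosines on a substrate, and the regulatory subunits of PI3-kinase dock there. PI3-kinase then activates AKT, which acts on mTOR complex 1 and holds FOXO factors out of the nucleus. IRS4 is the form known from HEK293 cells, where it was first purified as a prominent insulin receptor substrate, while IRS1 and IRS2 act in most tissues.

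Total counts per library ran from 23088295 to 37508780. The targeted gene, UBE3D, had 3345, 3349 and 2795 scaled CPM in the addback libraries, 12.97, 15.5 and 14.3 in the KO libraries and 19.5, 21.5 and 26.8 in the WT libraries. Its RNA was thus lower in every KO library than in every WT library but still present. All 8 markers of HEK293 cells (PAX2, NEFM, NEFL, INA, VIM, KRT8, KRT18 and LIN28B) averaged at least 1 scaled CPM in every group. That bar does not identify the cells, since 5 of 5 leukocyte, fibroblast and breast epithelial markers also passed it in addback and WT. Summed over the 8 markers, the level was 2476.0 to 2840.6 scaled CPM in KO and 1531.8 to 1606.5 in WT libraries. Addback lay between, at 2044.4 to 2196.6. The means of PAX2, NEFM and LIN28B were instead lower in KO than in WT. Reads also lay over the coding sequence of genes restricted to other tissues, at 22.5 to 107 counts per kilobase in addback libraries, 0 in KO libraries and 25.4 to 97.0 in WT libraries. This coding background was estimated for each gene from its coding length. With it subtracted, the mean of UBE3D in WT went from 22.6 to 19.5 scaled CPM, beside 14.2 in KO. Scaled CPM are library-size-normalised counts (CPM) with library factors from the 5868 low-background genes, in which the background is at most 10% of the level. Markers of other cells moved with it: the summed level of 5 leukocyte markers was 9.26 to 36.2 scaled CPM in addback, 1.61 to 2.40 in KO and 11.9 to 66.4 in WT libraries. For 4 endothelial markers it was 20.7 to 80.5, 2.54 to 3.40 and 18.5 to 74.4. For 5 fibroblast markers it was 68.7 to 112, 45.4 to 53.5 and 52.3 to 104. For 5 breast epithelial markers it was 46.0 to 72.6, 28.5 to 34.3 and 43.6 to 77.1, each in the same order of groups. No marker was at 0 in all 3 libraries of a group, and the part of these cells in the results was not tested.

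The sequences at the IRS4 locus are shown because its RNA was read at the gene, in the region downstream and in a divergent RNA upstream. The first set holds the last 30 bases of annotated transcripts (GENCODE v29, GRCh38), 5′ to 3′, with a poly(A) signal, AATAAA or ATTAAA, in capitals.
IRS4-201 (chrX:108732482-108732511, minus strand): tctacagtgttagggatactatttcattaa
AL035425.3-201 (chrX:108719949-108719978, minus strand): agctactcacAATAAAtgtgttcatgtaaa
IRS1-201 (chr2:226731317-226731346, minus strand): acaaactgccaATTAAAttttgcggagaca
IGF2R-205 (chr6:160106522-160106551, plus strand): caacaatttcAATAAAagataaattattaa
The annotated end of IRS4-201 holds neither hexamer in these 30 bases. Annotated ends of the other 5 genes each hold 1, although that of IRS2 lies 1139 bases from its counted end. A hexamer is found in the last 30 bases of 69.5% of 15129 coding genes whose counted end lies within 10 bases of a GENCODE end. AL035425.3-201 is an annotated transcript of the same strand whose end lies inside the downstream region, and it carries AATAAA.

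The second sequence is the window from 250 bases before to 50 after the start of IRS4 that the count table uses (RefSeq, GRCh38.p14, chrX:108736328-108736627, minus strand). It is shown because the start of the divergent RNA lies in the same window. Capitals mark GGGCGG and CACGTG.
IRS4 promoter: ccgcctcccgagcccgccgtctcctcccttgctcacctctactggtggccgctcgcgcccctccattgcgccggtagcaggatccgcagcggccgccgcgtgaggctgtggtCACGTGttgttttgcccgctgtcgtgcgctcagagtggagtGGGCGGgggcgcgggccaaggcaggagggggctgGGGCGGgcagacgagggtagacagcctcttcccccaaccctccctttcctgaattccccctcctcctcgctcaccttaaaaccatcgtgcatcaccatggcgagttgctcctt
Motifs were searched on both strands, and none overlaps another here. The GC box GGGCGG was present 2 times, and 45.0% of 35116 promoter windows hold it. The E-box CACGTG was present 1 time, and 7.26% of windows hold it. TATAAA, held by 11.5% of windows, and CCAAT, held by 34.6%, have no match here. The counted start of IRS4 is base 251 of the window and that of the divergent RNA is base 88. A further promoter window is listed for IRS4 (chrX:108736514-108736813), and the RefSeq span of IRS4 starts at 108736563, upstream of the counted start. The marked GC boxes and E-box lie inside that span, downstream of the RefSeq start.

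IRS4 (chromosome X, 108732497-108736377, minus strand, hg38) was the most abundant substrate RNA in all 9 libraries and much lower in KO than in WT libraries. It had 346, 310 and 351 scaled CPM in addback libraries, 233, 154 and 240 in KO libraries and 862, 814 and 849 in WT libraries. The groups did not overlap: KO was lowest, addback lay between, and every addback library was closer to the KO than to the WT libraries. The means were 336 ± 22.2, 209 ± 47.5 and 841 ± 24.8 scaled CPM (SD, n = 3 each) in addback, KO and WT. IRS4 was thus 4.02-fold lower in KO than in WT, a log2 fold of -2.01 ± 0.15 (SE of the edgeR fit). Addback exceeded KO by a log2 fold of 0.68 ± 0.14 and lay below WT by -1.32 ± 0.14. With library factors from all genes the same 3 log2 folds were -1.65, 0.35 and -1.30, so the size of the difference between addback and KO depended on the scaling. The KO library 2 was the lowest, and without it the addback fold over KO was 0.51. The coding background made up 2.06% of the IRS4 level.

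**Figure D1:**
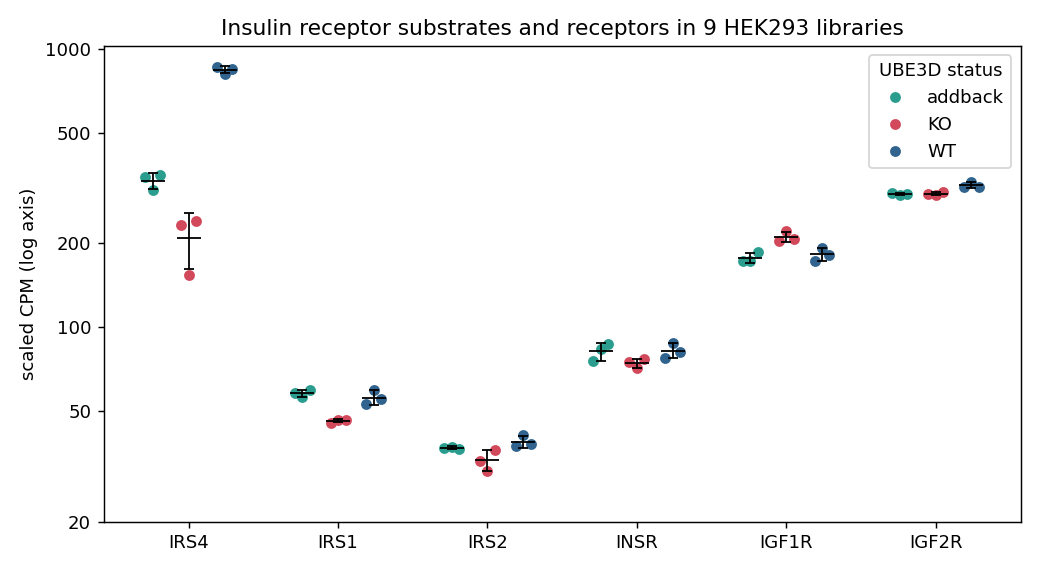
Scaled CPM of the 6 genes on a log axis in each library of addback, KO and WT cells (points), with mean and SD (bars, n = 3). IRS4 is separated by group, with WT at 814 to 862 and KO at 154 to 240 scaled CPM, while the groups of the other genes lie close together.

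IRS1 (chromosome 2, 226731317-226798790, minus strand), the substrate best known for growth and muscle insulin responses, had 57.9, 56.3 and 59.4 scaled CPM in addback, 45.4, 46.3 and 46.4 in KO and 52.8, 59.4 and 55.4 in WT libraries. The KO libraries lay below all others, while addback and WT overlapped. IRS1 fell in KO against WT by -0.28 ± 0.05 on the log2 scale (edgeR quasi-likelihood test, Benjamini-Hochberg adjusted p = 0.00219). It was higher in addback than in KO by 0.33 ± 0.05 (edgeR adjusted p = 0.00222). The coding background was 17.5% of its level, and with it subtracted the IRS1 means were 48.1 scaled CPM in addback, 46.0 in KO and 46.3 in WT. Neither difference passed the test then (edgeR adjusted p = 0.554 for KO against WT and 0.335 for addback against KO). With factors from all genes the IRS1 folds turned to 0.09 and -0.01.

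IRS2 (chromosome 13, 109753837-109786567, minus strand), the substrate central to insulin action in liver and beta cells, had 36.9, 37.2 and 36.4 scaled CPM in addback, 32.9, 30.5 and 36.2 in KO and 37.3, 41.0 and 38.04 in WT libraries. The KO libraries were the lowest, with KO 3 just under the lowest addback library. IRS2 fell in KO against WT by -0.22 ± 0.07 on the log2 scale (edgeR adjusted p = 0.024). That call was lost without KO 1 (0.0695), without KO 2 (0.0828) or without WT 2 (0.0793). Background was 27.7% of the IRS2 level, and with it subtracted the fold was 0.16 (edgeR adjusted p = 0.55). The IRS2 fold of addback over KO was 0.15 (edgeR adjusted p = 0.104), which did not pass the test.

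In their make-up per kilobase, IRS4 supplied 87.9 ± 0.625% of the summed substrate RNA in addback, 83.9 ± 3.00% in KO and 94.8 ± 0.422% in WT libraries (SD, n = 3 each). IRS1 made up 6.74 ± 0.253%, 8.50 ± 1.93% and 2.80 ± 0.239% in addback, KO and WT, and IRS2 5.36 ± 0.382%, 7.56 ± 1.09% and 2.43 ± 0.184%. IRS4 was thus the main substrate RNA in KO libraries too, and its share ran from 80.5% to 85.8% there, below the 94.3% to 95.1% of WT. These shares were calculated within a library, so they do not depend on the library factors.

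INSR (chromosome 19, 7112255-7294000, minus strand), the insulin receptor, had 75.3, 83.3 and 87.2 scaled CPM in addback, 74.7, 71.1 and 76.5 in KO and 77.7, 87.8 and 81.6 in WT libraries. The KO libraries overlapped with addback and lay just under WT. INSR did not pass the test in KO against WT (log2 fold -0.15 ± 0.06, edgeR adjusted p = 0.0661). That value crossed the threshold without WT 1 (0.0338) or addback 1 (0.0375), and the fold turned to 0.22 (edgeR adjusted p = 0.0455) with factors from all genes. INSR also did not pass the test in addback against KO, where the log2 fold was 0.15 (edgeR adjusted p = 0.0824). The authors' deposited tables give INSR the opposite sign in both comparisons. Their folds are 0.13 ± 0.06 in KO against WT and -0.16 ± 0.06 in addback against KO (authors' adjusted p = 0.0342 and 0.00832).

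IGF1R (chromosome 15, 98648539-98964530, plus strand), the receptor kinase for IGF1 and IGF2, went the other way. It had 173, 172 and 186 scaled CPM in addback, 204, 221 and 208 in KO and 173, 193 and 181 in WT libraries. All KO libraries lay above all others. IGF1R rose in KO against WT by 0.21 ± 0.05 on the log2 scale (edgeR adjusted p = 0.00643) and was lower in addback than in KO by -0.25 ± 0.05 (edgeR adjusted p = 0.00356). With the background subtracted the IGF1R folds were 0.23 and -0.27 (edgeR adjusted p = 0.0105 and 0.0106). Both calls were lost when the library factors came from genes under a 2% background limit (folds 0.10 and -0.15, edgeR adjusted p = 0.2 and 0.0728).

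IGF2R (chromosome 6, 159969099-160106551, plus strand), which carries IGF2 and mannose-6-phosphate-tagged enzymes to lysosomes, had 303, 299 and 300.4 scaled CPM in addback, 300.5, 298 and 306 in KO and 318, 333 and 320.1 in WT libraries. WT was highest with no overlap, and addback and KO overlapped. IGF2R fell in KO against WT by -0.10 ± 0.03 on the log2 scale (edgeR adjusted p = 0.00937), a difference that turned to 0.27 (edgeR adjusted p = 0.0662) with factors from all genes. It was lower in addback than in WT by -0.11 ± 0.03 (edgeR adjusted p = 0.0399), a call lost when any 1 of the 9 libraries was left out (edgeR adjusted p of 0.0528 to 0.137). IGF2R did not pass the test in addback against KO (edgeR adjusted p = 0.92), but with factors from all genes its fold there was -0.35 (edgeR adjusted p = 0.0244).

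All 6 genes passed the filter on low counts. Of the 5 besides IRS4, 4 were called in KO against WT (IGF1R higher, and IRS1, IRS2 and IGF2R lower), against 62.8% of 21994 genes tested (8.07% higher and 54.7% lower). With the background subtracted, IGF1R and IGF2R remained, 2 of 5, against 36.7% of genes. In addback against KO 2 of 5 were called, IRS1 higher and IGF1R lower, against 57.5% of genes (52.0% higher and 5.51% lower). Between addback and WT 1 of 5 was called, IGF2R, against 9.42% (4.62% lower). With 5 genes these counts say nothing particular about the members. Library factors from all genes moved the median log2 fold of all tested genes in KO against WT to -0.12, compared with -0.50 on the scaled CPM used here, so log2 folds under about that shift can change sign. Fewer cells with a transcript and less RNA per cell cannot be told apart in these bulk libraries.

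**Figure D2:**
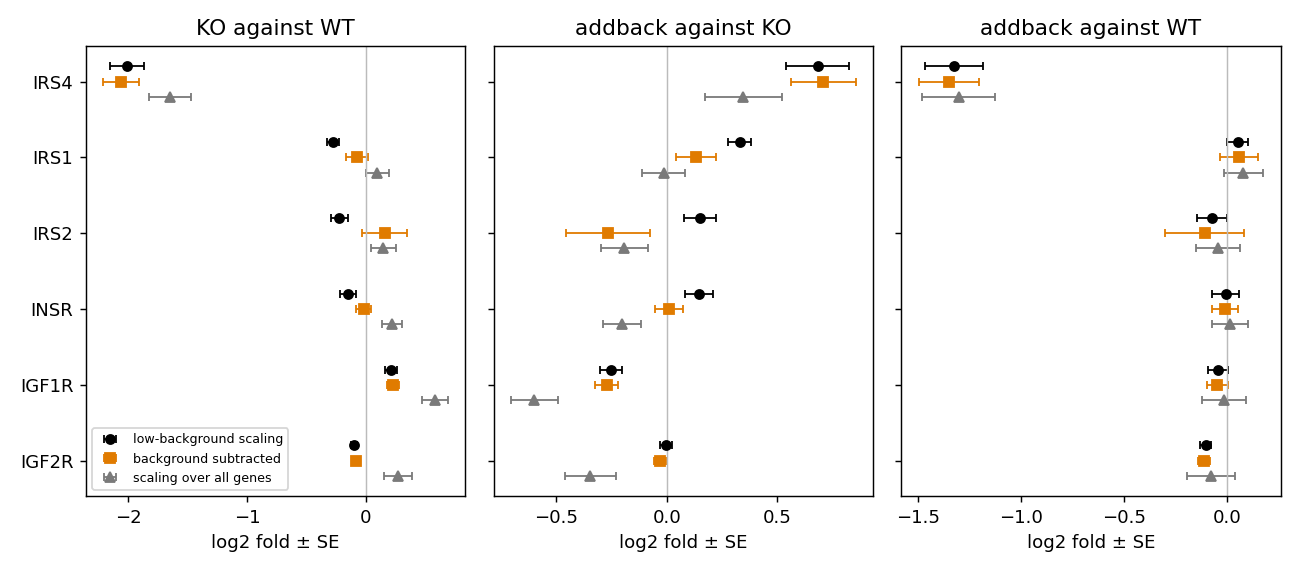
Log2 folds with standard errors of the 6 genes in the 3 comparisons, for library factors from low-background genes, the same with the background subtracted, and factors from all genes. IRS4 keeps its sign in every panel, from -2.06 to -1.65 in KO against WT, while IRS1, IRS2, INSR and IGF2R change sign there with factors from all genes.

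Per kilobase of exon the order of the levels was the same in the 3 groups, with IRS4 first and IGF2R, IGF1R, INSR, IRS1 and IRS2 after it. IRS4 had 86.5 ± 5.71, 53.9 ± 12.3 and 217 ± 6.40 scaled CPM per kilobase in addback, KO and WT (SD, n = 3 each). IGF2R had 33.1 ± 0.185, 33.2 ± 0.425 and 35.6 ± 0.918, and IGF1R had 14.5 ± 0.616, 17.2 ± 0.718 and 14.9 ± 0.792. INSR had 9.05 ± 0.670, 8.18 ± 0.308 and 9.09 ± 0.563 scaled CPM per kilobase in the same groups. IRS1 had 6.62 ± 0.175, 5.27 ± 0.0659 and 6.39 ± 0.383, and IRS2 had 5.27 ± 0.0594, 4.75 ± 0.415 and 5.54 ± 0.277. The libraries of neighbouring genes in this order did not overlap within any group, and the closest pair was IRS1 and IRS2 in KO. IRS1 and IRS2 levels in addback and WT include the background given above.

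The region downstream of IRS4 (chromosome X, 108707298-108732497, minus strand, 25200 bases) was the most heavily read of its kind. In the authors' deposited table of KO against WT its base mean, a normalised read count averaged over samples, was 53396, the highest of 2541 regions. HOXD11 came next with 14058, and the median of all regions was 258. Per kilobase the IRS4 region also ranked first, at 2119, with HOXD11 at 1959 and a median of 18.4. In the authors' deposited table of addback against KO it again ranked first of 2396 regions, with a base mean of 26827.

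The log2 fold of the IRS4 region in the authors' deposited tables was -2.61 ± 0.14 in KO against WT and 0.99 ± 0.14 in addback against KO (SE). For the gene body the authors' deposited tables give -1.73 ± 0.16 and 0.30 ± 0.14. The median fold was 0 over all regions in each region table, but -0.18 and 0.15 over all genes in the gene tables. The region and gene tables were normalised separately, so the difference between region and gene was not tested. An adjusted p under 0.05 is given for 49.8% of regions in KO against WT and for 34.1% in addback against KO. The fold of the IRS4 region ranked 25 from the lowest of 2541 in KO against WT. Set against an unshrunken DESeq2 fold of the host gene, it lay lower by -0.88, while the median over 1143 regions with an adjusted p under 0.05 was 0.10. A difference at least as low was found for 62 of these 1143.

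What counts as downstream rests on the gene model. The counted IRS4 is 3881 bases long and ends where the region begins. RefSeq (GRCh38.p14) gives IRS4 a span of 16618 bases, 108719946-108736563, which reaches 12551 bases past the counted end. It takes in 12552 bases, or 49.8%, of the region. GENCODE v29 has exons of 3 further transcripts on the same strand there, AL035425.2-201, AL035425.3-201 and AL035425.4-201, which cover 6059 bases or 24.04% of the region. AL035425.3-201, the one whose AATAAA is printed above, ends within a few bases of the RefSeq end of IRS4. Beyond the region, 9752 bases separate it from the end of COL4A5 on the plus strand. The deposited region tables hold 1 value per region, so the reads inside and past the RefSeq span cannot be told apart.

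**Figure D3:**
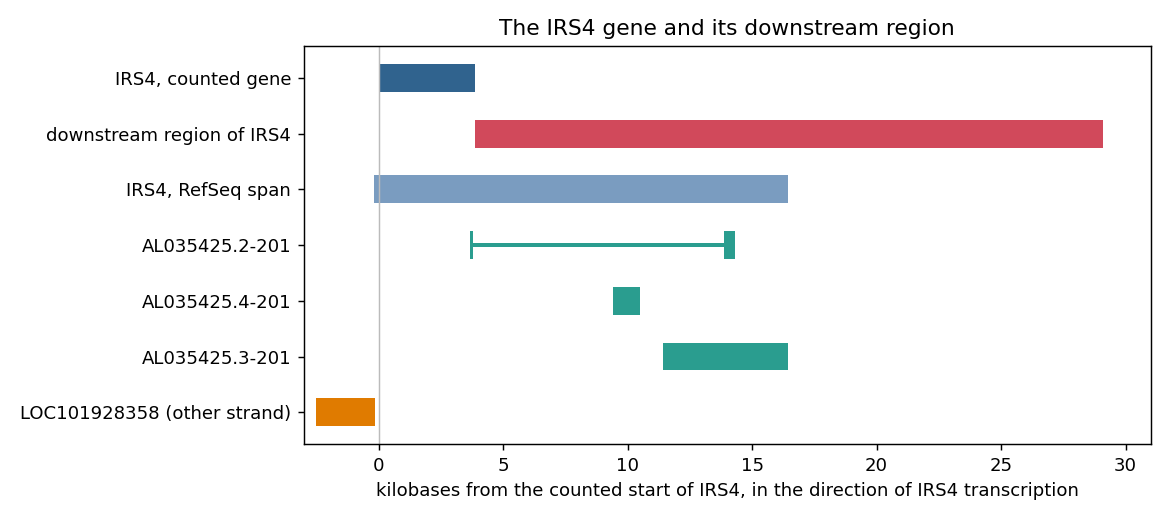
Map of the IRS4 locus in kilobases from the counted start of IRS4, drawn in the direction of its transcription, with exons as thick and the intron as a thin bar for the 3 GENCODE transcripts. The downstream region starts where the counted gene ends, and the RefSeq span of IRS4 covers 49.8% of it.

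No region is listed for IRS1, IRS2, INSR or IGF1R. IGF2R shares a region with the neighbouring LOC729603 (chromosome 6, 160106552-160118151, plus strand), with a base mean of 634 in the authors' deposited table of KO against WT. The log2 fold there was -0.07 ± 0.10 (authors' adjusted p = 0.601), and in the authors' deposited table of addback against KO it was -0.52 ± 0.11 (authors' adjusted p = 8.21e-06). The IGF2R region was thus lower in addback than in KO, whereas the IRS4 region was higher. For the IGF2R gene the authors' deposited tables give 0.17 ± 0.07 in KO against WT (authors' adjusted p = 0.0281). That sign is opposite to the -0.10 on the scaled CPM used here. In addback against KO they give -0.29 ± 0.07 (authors' adjusted p = 0.000174), the same direction as the region.

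LOC101928358 (RefSeq name IRS4-AS1; chromosome X, 108736540-108738903, plus strand) starts 163 bases from the counted start of IRS4 and runs the other way. In RefSeq both genes overlap by 24 bases. Whether the counting used strand is not given in the sources used here, so reads in that overlap cannot be assigned. It had 2.95, 2.502 and 3.31 scaled CPM in addback, 3.35, 2.25 and 2.38 in KO and 7.66, 6.58 and 7.23 in WT libraries. Addback and KO overlapped, and both lay well below WT. LOC101928358 fell in KO against WT by -1.43 ± 0.34 on the log2 scale (edgeR adjusted p = 0.00585), a call kept in all 20 alternatives that gave a value. Its fold in addback against KO was 0.14 ± 0.33 (edgeR adjusted p = 0.742), an error that leaves room for no difference and for the 0.68 of IRS4 alike. It was lower in addback than in WT by -1.29 ± 0.33 (edgeR adjusted p = 0.0439), a call lost with factors from all genes (0.119) and when any 1 library was left out (0.0713 to 0.159). The authors' deposited table of KO against WT also lists a region downstream of LOC101928358 (chromosome X, 108738904-108747903, plus strand), with a log2 fold of -1.84 ± 0.18 (authors' adjusted p = 9e-22). In the authors' deposited table of addback against KO the fold of that region was 0.31 ± 0.19 (authors' adjusted p = 0.115).

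Within 1 Mb of IRS4, 15 other genes are counted and 13 were tested. In KO against WT 11 of them were called, 1 higher and 10 lower, against 62.8% of all genes (8.07% higher and 54.7% lower). With the background subtracted 5 of 11 were called, 1 higher and 4 lower, against 36.7% of all genes. Among the 4 low-background neighbours, 3 were called, 1 higher and 2 lower, against 51.2% of such genes. TSC22D3, a glucocorticoid-induced leucine zipper protein, fell by -0.53 ± 0.12 (edgeR adjusted p = 0.00494). ACSL4, a fatty acid CoA ligase, fell by -0.31 ± 0.05 (edgeR adjusted p = 0.00165), with 103, 101 and 109 scaled CPM in addback, 102, 109 and 102 in KO and 125, 126 and 138 in WT. PSMD10, a proteasome assembly chaperone, rose by 0.22 ± 0.03 (edgeR adjusted p = 0.0015), and NXT2, an mRNA export factor, had a fold of -0.08 (edgeR adjusted p = 0.677). With factors from all genes the fold of ACSL4 turned to 0.06 and that of TSC22D3 was -0.18. Neither was then called (edgeR adjusted p = 0.643 and 0.343), while PSMD10 kept its call. Over the 233 low-background genes of chromosome X the median log2 fold was -0.04, and 126 were called (52 higher, 74 lower). None of the 4 low-background neighbours had a fold as large as that of IRS4 or LOC101928358. TEX13B, VSIG1, GUCY2F and KCNE5, also called lower, had larger fitted folds than IRS4, but the coding background equalled 93.8% to 165% of their level. With the background subtracted VSIG1 and GUCY2F did not pass the test (edgeR adjusted p = 0.164 and 0.259), and TEX13B and KCNE5 were not tested.

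The low-background genes whose profile over the 9 libraries was most like that of IRS4 were found by the smallest root mean square difference of centred log2(scaled CPM + 0.5), among 5865 candidates. INSIG1 (chromosome 7), which retains the sterol sensor in the endoplasmic reticulum, was the closest at 0.26. HMGCS1 (chromosome 5), which makes HMG-CoA for sterol synthesis, followed at 0.37, and RPRM (chromosome 2), a p53-induced cell cycle protein, at 0.39. POU3F3 (chromosome 2), a neural transcription factor, lay at 0.40 and SUMF2 (chromosome 7), a sulfatase-modifying factor homologue, at 0.44. INSIG1 had 149, 149.8 and 148 scaled CPM in addback, 119, 103 and 120.2 in KO and 319, 301 and 326 in WT. Their log2 folds in KO against WT were -1.47 for INSIG1, -1.17 for HMGCS1, -1.14 for RPRM, -1.12 for POU3F3 and -1.14 for SUMF2, all smaller than the -2.01 of IRS4. These genes were picked for their likeness to IRS4, so their folds are a description.

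**Figure D4:**
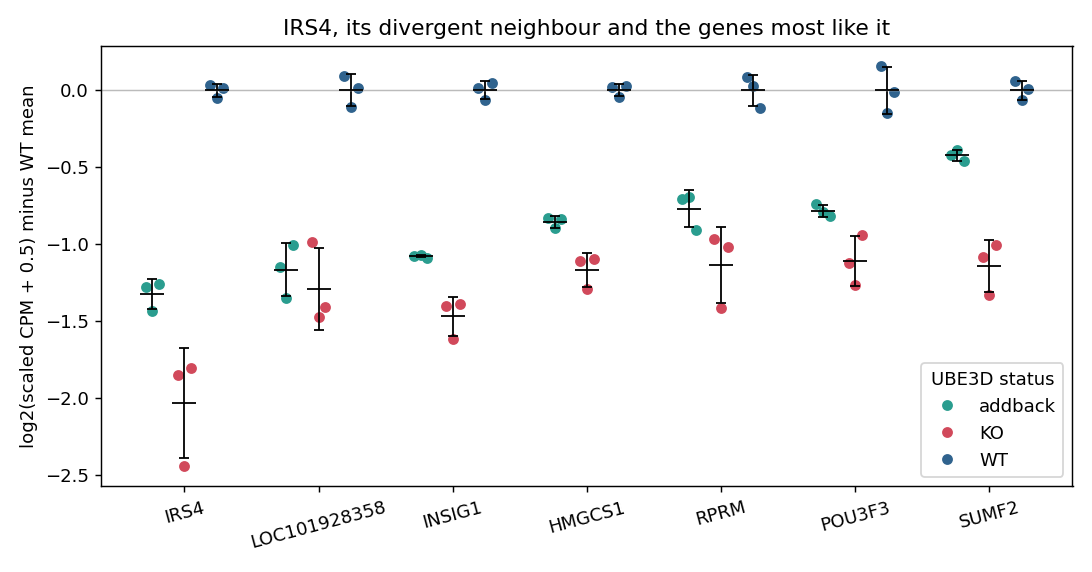
Log2(scaled CPM + 0.5) minus the WT mean for IRS4, LOC101928358 and the 5 genes most like IRS4, in each library of addback, KO and WT cells (points) with mean and SD (bars, n = 3). KO means lie lowest and addback means between KO and WT for all 7 genes, and addback and KO points overlap only for LOC101928358.

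Around these genes, 110 genes of the insulin and IGF pathway were listed in 8 groups, and 109 were tested. In KO against WT 62 were called (11 higher, 51 lower) against 62.8% of all genes, with a median log2 fold of -0.25 beside -0.50 for all genes. With the background subtracted 42 of 107 were called, against 36.7% of all genes. Among the 48 low-background members, 25 were called (9 higher, 16 lower), against 51.2% of such genes (24.3% higher and 26.8% lower), with a median of -0.08 beside -0.01. Each share called was near that of the genes it is set against. The 20 low-background genes with the largest folds among those called are named below.

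Among ligands and binding proteins, IGFBP5, a secreted IGF-binding protein, changed most of the 48. It had 115, 108 and 121 scaled CPM in addback, 86.8, 55.3 and 93.2 in KO and 168, 146 and 162 in WT libraries. The groups did not overlap, and KO was lowest. IGFBP5 fell in KO against WT by -1.02 ± 0.16 (edgeR adjusted p = 0.00164). It was higher in addback than in KO by 0.54 ± 0.16 (edgeR adjusted p = 0.0198), a call lost with factors from all genes (0.348) or without addback 3 (0.0602). IGFBP2, another IGF-binding protein, had 60.7, 61.1 and 59.8 scaled CPM in addback, 58.7, 57.2 and 58.7 in KO and 79.2, 72.1 and 73.2 in WT. It fell by -0.36 ± 0.04 in KO against WT (edgeR adjusted p = 0.000644), and its fold in addback was 0.06 over KO and -0.31 over WT (edgeR adjusted p = 0.276 and 0.00228). IGFBP5 did not pass the test in addback against WT (log2 fold -0.47, edgeR adjusted p = 0.129), but did with the replicate block (0.0173). With factors from all genes the KO against WT fold of IGFBP2 was 0.00 (adjusted p = 0.987).

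The 3 IGF2 mRNA-binding proteins, which bind IGF2 and other messages, were all called in KO against WT, beside 51.2% of all low-background genes. With 3 genes this count says nothing particular about the group. IGF2BP3 fell by -0.32 ± 0.04 and IGF2BP2 by -0.23 ± 0.04, while IGF2BP1, the most abundant, rose by 0.17 ± 0.04 (edgeR adjusted p = 0.000452, 0.00171 and 0.00413). IGF2BP3 was also lower in addback than in WT, by -0.35 ± 0.04 (edgeR adjusted p = 0.00036). With factors from all genes the folds of IGF2BP3 and IGF2BP2 turned to 0.05 and 0.14, and neither was called (edgeR adjusted p = 0.73 and 0.226). The IGF2BP1 call was lost with the background subtracted at 2 times (edgeR adjusted p = 0.143). It was also lost with factors from genes under a 2% background limit (0.118).

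Of the docking adaptors, 7 of 28 were low-background and 4 of these were called in KO against WT, beside 51.2% of all low-background genes. PTPN11, the SHP2 phosphatase that docks on substrates, rose by 0.24 ± 0.04 (edgeR adjusted p = 0.00134). CRK, an SH2 adaptor, rose by 0.19 ± 0.05 and NCK2, a related adaptor, fell by -0.17 ± 0.06 (edgeR adjusted p = 0.00804 and 0.0237). The NCK2 call was lost with the background subtracted (0.0644) and without KO 1, KO 2, KO 3 or WT 2 (edgeR adjusted p of 0.054 to 0.0788). GRB2, the adaptor that links substrates to RAS, did not pass the test, with 161, 155 and 142 scaled CPM in addback, 165, 170 and 163 in KO and 164, 162 and 150 in WT libraries.

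In the PI3-kinase and AKT group, 5 of 8 low-background genes were called, 1 higher and 4 lower, beside the 51.2% of all low-background genes. The regulatory subunits PIK3R3 and PIK3R2, which dock on phosphorylated substrates, fell in KO against WT by -0.46 ± 0.06 and -0.35 ± 0.06 (edgeR adjusted p = 0.000709 and 0.00168). PIK3R3 had 58.1, 59.7 and 63.1 scaled CPM in addback, 52.3, 46.0 and 50.2 in KO and 66.6, 68.4 and 69.4 in WT, with no overlap between groups. INPPL1, the SHIP2 lipid phosphatase, fell by -0.25 ± 0.04 (edgeR adjusted p = 0.0014). PIK3R3, PIK3R2 and INPPL1 were higher in addback than in KO by 0.29, 0.18 and 0.19 (edgeR adjusted p = 0.0034, 0.0257 and 0.0035), folds that turned to -0.06, -0.16 and -0.15 with factors from all genes. The PIK3R2 call in addback against KO was also lost with the background subtracted (0.0867) and without KO 1, KO 2, addback 1 or addback 2 (edgeR adjusted p of 0.0643 to 0.092).

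In the group of mTOR components and AKT substrates, 7 of 13 low-background genes were called, 2 higher and 5 lower, again near the 51.2% of all low-background genes. MAPKAP1, the SIN1 subunit of mTOR complex 2, had 66.9, 69.8 and 68.6 scaled CPM in addback, 67.8, 73.2 and 69.0 in KO and 102, 100.2 and 97.7 in WT libraries. Addback and KO overlapped, and WT lay far above both. MAPKAP1 fell in KO against WT by -0.51 ± 0.04 (edgeR adjusted p = 9.28e-05). It was lower in addback than in WT by -0.55 ± 0.04 (edgeR adjusted p = 6.98e-05), and its fold in addback against KO was -0.03 (edgeR adjusted p = 0.509). MLST8, an mTOR-binding subunit, fell in KO against WT by -0.41 ± 0.07, and AKT1S1, the AKT substrate PRAS40, rose by 0.37 ± 0.06 (edgeR adjusted p = 0.00179 and 0.00203). Both were called the other way in addback against KO, MLST8 at 0.37 and AKT1S1 at -0.31 (edgeR adjusted p = 0.00303 and 0.00446). RPS6KB2, MTOR and FOXO3 fell in KO against WT by -0.22, -0.20 and -0.20 (edgeR adjusted p = 0.0101, 0.00161 and 0.00682). With factors from all genes these folds turned to 0.14, 0.17 and 0.16. MAPKAP1 and MLST8 then lost their calls in KO against WT (-0.15 and -0.04, edgeR adjusted p = 0.272 and 0.795). In addback against KO, MLST8 then lost its call (0.03, edgeR adjusted p = 0.867) and MAPKAP1 was called lower (-0.38, edgeR adjusted p = 0.0154). AKT1S1 kept both calls.

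Of the inhibitors of insulin signalling, 2 of 6 low-background genes were called in KO against WT, below the 51.2%. PTPRF, the LAR receptor phosphatase, fell by -0.25 ± 0.04 (edgeR adjusted p = 0.00163). Among FOXO targets 2 of 6 were also called. CDKN1B, the p27 cell cycle inhibitor, rose by 0.34 ± 0.05 and SESN3, a sestrin, fell by -0.20 ± 0.05 (edgeR adjusted p = 0.00101 and 0.0114). Of the 20 named genes, 19 kept their call and direction with the background subtracted, but 6 did so with factors from all genes, under which 10 had the opposite sign. Those 6 were IGFBP5, AKT1S1, CDKN1B, PTPN11, CRK and IGF2BP1.

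**Figure D5:**
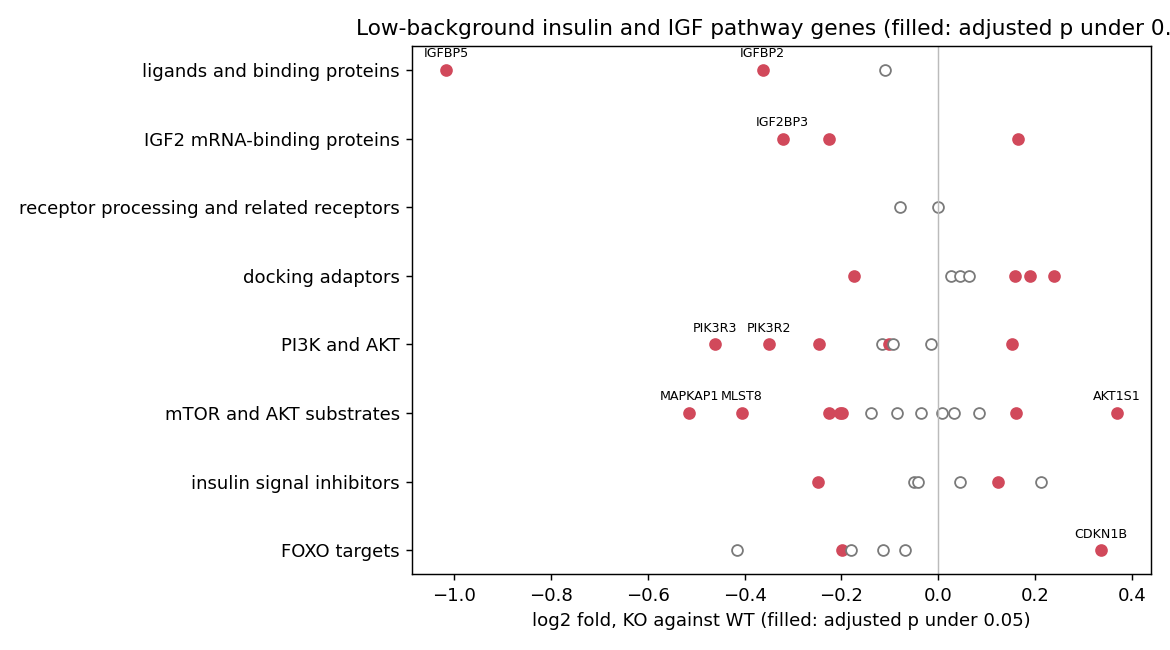
Log2 fold in KO against WT of the 48 low-background pathway genes by group, with filled points for an edgeR adjusted p under 0.05 and the 9 largest named. IGFBP5 stands at -1.02, and the other points lie between about -0.51 and 0.37.

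In addback against KO 57 of 109 pathway genes were called (48 higher, 9 lower), against 57.5% of all genes, and 20 of 48 among low-background genes (13 higher, 7 lower), against 37.2%. In addback against WT 13 were called (5 higher, 8 lower), against 9.42%, and 7 of the 48, against 26.3%. The comparisons with addback use the KO or the WT libraries again, so their folds are not independent of those of KO against WT.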

How the data were processed

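The 6 genes, the pathway lists and the use of library factors from low-background genes were chosen with earlier results of these data known. Per the submitters' processing notes, cutadapt 1.8.1, STAR 2.5.2b and DESeq2 were used with hg38. The sources used here name no counting program, annotation or strand setting. Per the file headers, the authors' count table gives whole-read counts per gene and library, with gene length in bases. The authors' deposited result tables give base means (a normalised signal), log2 folds with standard errors, test statistics (scores) and p-values; region folds of KO against WT are unshrunken. The treatment text naming the knockout stands on all samples, so groups were taken from the titles. Columns named KO.U were read as addback, since the depositors' region table calls that group KO-UBE3D.

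The gene counts entered a model in edgeR 4.0.16 (R 4.3.3; 21994 genes kept by filterByExpr, robust quasi-likelihood fit over 9 libraries, calls at a Benjamini-Hochberg adjusted p under 0.05). The background of a library was the median over genes of counts per coding kilobase in 578 tissue-restricted genes (odorant receptors and similar families), and that of a gene followed from its GENCODE v29 coding length. TMM factors came from 5868 genes with a background of at most 10% over the 6 libraries that have it. Alternatives were other factors, DESeq2 1.42.0, no count filter, background subtraction, subsets of libraries and a replicate block. The fit was tested on simulated data with 200 changed genes and no coding background. That test therefore does not cover the background estimate, its subtraction or the choice of low-background genes. Over all genes, libraries of the same number deviated together in addback against WT (correlations of 0.894, 0.600 and 0.740). In the comparisons with KO they did not (-0.0433 to 0.00340). Over low-background genes the correlations were 0.511, 0.205 and 0.604 in addback against WT, and 0.0373 to 0.210 in the comparisons with KO. The coding background was also lowest in library 1 of both addback and WT, and its part in these correlations was not tested. Values come from the fit without a replicate block, and the fit with it is given for addback against WT where it changes a call. Named pathway genes are the 20 largest log2 folds among called low-background genes in KO against WT, and genes like IRS4 are the 5 closest. GRB2 was named after its values were seen. No 2 libraries were copies, and 0 sample columns went unused. The IRS4 promoter sequence came from RefSeq (GRCh38.p14), and transcript ends from GENCODE v29.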

Additional observations from a re-analysis of the deposited data

How the results depend on the processing

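Under the alternatives run, IRS4 kept the sign of its log2 fold in each comparison: -2.12 to -1.65 in KO against WT. The other members have small folds that depended on the library factors, and the cause was not tested. The effect of depth was not tested.

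In KO against WT, factors from all genes reversed IRS1 (0.0926), IRS2 (0.15), INSR (0.22) and IGF2R (0.27). Upper quartile factors reversed INSR (0.0036) and IGF2R (0.0534), and DESeq2 with its own size factors IRS1 (0.0075), IRS2 (0.0626), INSR (0.13) and IGF2R (0.18). Subtracting the background reversed IRS2 (0.16), also with the replicate block (0.18). Subtracting it at 2 times reversed IRS1 (0.21), IRS2 (0.78) and INSR (0.16).

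In addback against KO, factors from all genes reversed IRS1 (-0.0144), IRS2 (-0.19) and INSR (-0.20). Upper quartile factors reversed IRS2 (-0.0182) and INSR (-0.0248), and DESeq2 with its own size factors IRS2 (-0.16) and INSR (-0.16). Background subtraction reversed IRS2 (-0.27, and -0.29 with the replicate block). At 2 times it reversed IRS1 (-0.13), IRS2 (-0.96) and INSR (-0.16). IGF2R turned to 0.10 with factors from genes under a 2% limit. It ran from -0.0146 to 0.0069 when 1 library was left out, with 0.0000715 without addback 2. In addback against WT, INSR turned to 0.0148 with factors from all genes, and ran from -0.0548 to 0.0416 when 1 library was left out.

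Counts of all genes called moved by over 1.5 times as follows. In KO against WT (13802) they were 3076 with low-background genes alone (fewer genes tested), 7391 with the background subtracted (7343 with the replicate block) and 5224 at 2 times. In addback against KO (12653) they were 2151, 5076, 5219 and 3495 in that order. In addback against WT (2072) they were 566 with factors from all genes, 3370 with DESeq2 on low-background library sizes and 1238 with the 6 libraries compared. Leaving out 1 library gave 11416 to 14941, 9809 to 13605 and 1237 to 1936 genes in the 3 comparisons, with 1345 without addback 1. Pathway genes called in KO against WT (62) were 26 with low-background genes alone and 29 at 2 times. In addback against KO (57) they were 19 with low-background genes alone, 31 with the background subtracted (32 with the block) and 18 at 2 times. In addback against WT (13) they were 3 with factors from all genes, 23 with DESeq2 on low-background sizes and 7 to 14 with 1 library left out (7 without addback 2). With all 9 libraries 109 pathway genes were tested among 21994 genes. With low-background genes alone these were 48 among 5868, and with the background subtracted once 107 among 20149. The counts of all genes called under the same settings are given above.

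The IRS4 share of substrate RNA was 90.1% in addback and 95.8% in WT with the background subtracted, and 92.6% and 96.9% at 2 times. Without division by length it was 78.0% in addback, 72.0% in KO and 89.9% in WT. Neighbours of IRS4 called in KO against WT (11 of 13) were 6 of 13 with factors from all genes, against 13541 of 21994 genes. With low-background genes alone 3 of 4 neighbours were called. Chromosome X genes called (585 of 856) were then 130 of 233.

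The replicate block, which pairs libraries by number, changed no call of a member in addback against WT (IRS4 at -1.33). Of the 48 low-background pathway genes, the block changed the calls of IGFBP5 and TXNIP there. In KO against WT, where the numbers do not pair, it gave 14893 genes, -2.03 for IRS4 and an edgeR adjusted p of 0.0378 for INSR. Factors from genes under a 2% limit and the block with background subtraction were chosen after seeing the data.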

Other observations

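The KO libraries differed among themselves in the genes that separate KO from WT. KO 2 had the lowest level of the 3 KO libraries for IRS4, LOC101928358, IGFBP5, PIK3R3 and all 5 genes most like IRS4. Over the 1574 low-background genes called lower in KO than in WT, KO 2 was the lowest KO library for 57.2%, KO 1 for 24.5% and KO 3 for 18.3%. Over the 1428 called higher, KO 2 was the highest for 50.1%. Over all 5868 low-background genes KO 2 was lowest for 41.4% and highest for 36.2%. The calls themselves use these libraries, so the shares are a description.

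Of the 48 low-background pathway genes, 2 were called higher in addback than in WT, against 757 of 5868 low-background genes. The genes below stood higher in addback than in KO and WT alike. EIF4EBP1, of the mTOR and AKT substrate group, had 38.4 to 43.3 scaled CPM in addback, 31.8 to 34.5 in KO and 29.3 to 33.0 in WT. TRIB3, a pseudokinase known to bind AKT, had 70.4, 68.3 and 61.2 scaled CPM in addback, 47.5, 43.3 and 49.0 in KO and 39.9, 44.1 and 36.5 in WT libraries. Its log2 fold over KO was 0.52 ± 0.08 and that over WT 0.73 ± 0.08 (edgeR adjusted p = 0.00236 and 0.000855). TXNIP, a FOXO target that limits glucose uptake, had 53.1, 54.8 and 67.6 scaled CPM in addback, 18.1 to 31.4 in KO and 33.4, 29.5 and 42.2 in WT. TXNIP was higher in addback than in KO by 1.16 ± 0.21 (edgeR adjusted p = 0.00284), and against WT it did not pass the test (0.74 ± 0.21, edgeR adjusted p = 0.0623), but did with the replicate block (0.75, edgeR adjusted p = 0.00284). These genes were chosen after their values were seen.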
